A study of Mus musculus with 4 samples.

Results

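LINE-1 (L1) is the row named L1 in a table of read counts for 47 repeat families, and it was chosen by that name alone. It is 1 of the 4 LINE rows, 1 of 19 retrotransposon rows (LINE, SINE and LTR) and 1 of 34 transposon rows, which add the DNA transposons. The counts come from nanoCAGE, which enriches for the 5′ ends of capped RNAs in small amounts of total RNA. The material was fully grown oocytes, 2-cell embryos at 48 h, 8-cell embryos at 68 h and blastocysts at 92 h, in order of development. All of it came from F1 (C57BL/6J X CBA/H) crosses, and no treatment or mutation is given for any stage. There is 1 sample per stage, with runs numbered 1.1, 1.2 and 2, or 1 and 2 in the 2-cell embryo. Whether the runs of a stage share a library or a pool of embryos is not stated, and they were taken as repeat runs. No p-value was computed, and the spread between runs may be technical.

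L1 elements copy themselves through an RNA intermediate. An intact L1 encodes an RNA-binding protein and an enzyme with endonuclease and reverse transcriptase activity, and it is transcribed from a promoter at its own 5′ end. Most copies in the genome are truncated at that end and have lost the promoter. The SINE families B1, B2, B4 and ID encode no protein and are copied by L1 enzymes, whereas LTR retrotransposons, the relatives of retroviruses, do not depend on L1. L1 RNA and L1 proteins are known to be present in mouse oocytes and early embryos. The row counts 5′ ends that fall anywhere in an L1 copy, without subfamily, strand or position within the element, so starts at the L1 promoter and starts of other RNAs inside L1 copies cannot be told apart here.

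The L1 row held 564163 counts over the 11 runs, between 10852 and 154513 per run, in runs of 36922 to 1919263 counts. Counting error was small beside the differences between runs. The widest exact (Clopper-Pearson) 95% interval of an L1 share spanned 0.933 percentage points, in blastocyst run 1.1 (36.9% to 37.8%). These intervals cover counting error only. 8-cell run 2 stood apart from the other 8-cell runs, with 26.5% ribosomal RNA (rRNA) against 0.807% and 3.81%. Oocyte run 1.1 stood apart from the other oocyte runs, with 44.9% rRNA against 14.0% and 10.3%. The main comparisons are also given without single runs. The L1 share also moved with depth: it was 23.8% to 37.3% in the 5 runs of 36922 to 93980 counts, 30.1% and 14.7% in the 2-cell runs of 232146 and 245473 counts, and 8.05% to 10.8% in the 4 runs of 377629 to 1919263 counts. The part of depth in the stage differences was not tested.

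L1 took 9.43%, 8.05% and 10.8% of all counts in oocyte runs 1.1, 1.2 and 2. In 2-cell runs 1 and 2 it took 30.1% and 14.7%. In 8-cell runs 1.1, 1.2 and 2 it took 31.7%, 23.8% and 9.47%, and in blastocyst runs 1.1, 1.2 and 2 it took 37.3%, 29.4% and 32.3%. Oocyte runs lay close together, with the highest 1.34-fold over the lowest, and blastocyst runs were as close, at 1.27-fold. The 2-cell runs differed 2.05-fold and the 8-cell runs 3.35-fold, so on this measure the cleavage stages were the more variable. Among transposon counts, given below, the oocyte runs differed 2.20-fold, against 1.84-fold in the 2-cell embryo and 2.14-fold in the 8-cell embryo. The order of mean shares was oocyte (9.43%), 8-cell (21.7%), 2-cell (22.4%) and blastocyst (33.0%). Of these neighbours, the 8-cell and oocyte runs overlapped, as did the 2-cell and 8-cell runs, and the lowest blastocyst run (29.4%) lay just under the higher 2-cell run (30.1%). All values here are shares or ratios within a run: more L1 RNA cannot be told apart from less RNA of other families, nor fewer cells of a type from less RNA per cell.

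**Figure D1:**
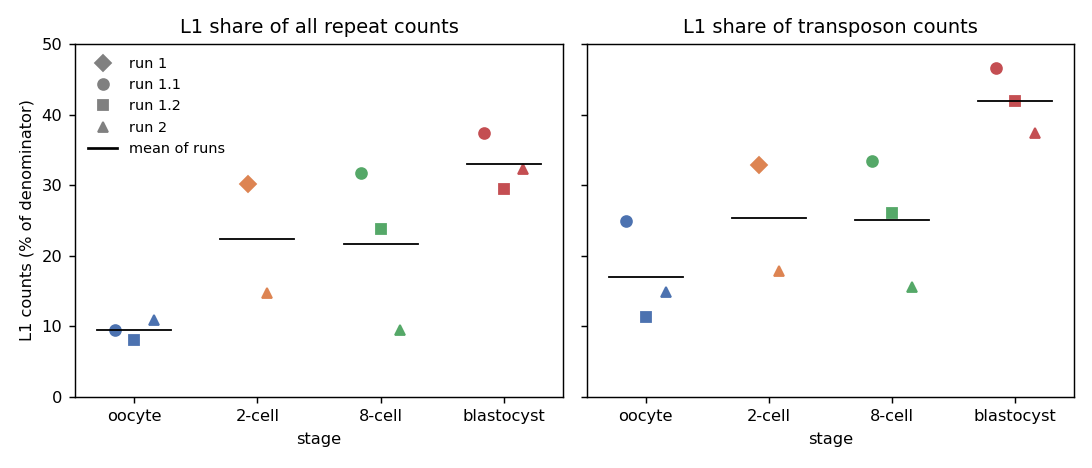
L1 counts as a percentage of all repeat counts (left) and of transposon counts (right) in each run, by stage, with run numbers as symbols and the mean of the runs as a line. On the right all 3 blastocyst runs (37.4% to 46.6%) lie above every run of the earlier stages, while on the left 2-cell run 1 and 8-cell run 1.1 reach the blastocyst range.

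L1 was the largest of the 47 families in 6 of the 11 runs. These were all 3 blastocyst runs, 8-cell runs 1.1 and 1.2 and 2-cell run 1. In the oocyte MaLR, the LTR family of the MT and ORR1 elements, exceeded L1 in every run, rRNA did so in runs 1.1 and 1.2, and ERVK, the LTR family of IAP and ETn elements, in run 1.2. MaLR alone exceeded L1 in 2-cell run 2, and rRNA and ERVK did so in 8-cell run 2. In blastocyst runs 1.1, 1.2 and 2, L1 had 3.67, 1.60 and 3.03 times the counts of the next family. In 8-cell run 1.2 its lead was 1.02-fold, over MaLR.

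A family was called higher or lower between stages when its mean shares were at least 2-fold apart and the runs of both stages did not overlap. The shares of families called, given below, set no lower limit on counts. Some families called held few counts over both stages, such as Helitron (23) for 2-cell over oocyte and the row named LTR (6) for blastocyst over oocyte. By share of all counts L1 was called higher in the 2-cell embryo than in the oocyte, with means of 22.4% and 9.43% and a ratio of 2.38. In that comparison 31.9% of the 47 families were called higher. Without 2-cell run 1 the L1 ratio was 1.56 and the call was lost. L1 was also called higher in the blastocyst than in the oocyte, with means of 33.0% and 9.43% and a ratio of 3.50, where 27.7% of families were called higher. Leaving out any single run kept that ratio between 3.26 and 3.78. The 8-cell embryo and the oocyte had means of 21.7% and 9.43%, a ratio of 2.30 with overlapping runs, and 17.0% of families were called higher. Without 8-cell run 2 that ratio was 2.94 and L1 was called, as it was without oocyte run 2 (2.48). The second call rests on 8-cell run 2 (9.47%) lying just above oocyte run 1.1 (9.43%). Their 95% intervals overlapped, at 9.41% to 9.52% and 9.35% to 9.50%.

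L1 was not called in the remaining stage pairs. The 8-cell and 2-cell means were 21.7% and 22.4% (ratio 0.967), and without 2-cell run 1 the ratio was 1.47. In that step 2.13% of families were called higher and 8.51% lower. The blastocyst and 8-cell means were 33.0% and 21.7% (ratio 1.52), with 8.51% of families called higher. The blastocyst and 2-cell means were 33.0% and 22.4% (ratio 1.47), with 10.6% called higher, and without 2-cell run 1 L1 was called at 2.24.

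A share of all counts also moves with rRNA and other rows that are not transposons, so L1 was set against transposon rows alone. These rows took 37.9% to 72.8% of counts in oocyte runs, 82.2% and 91.6% in 2-cell runs, 60.6% to 95.1% in 8-cell runs and 70.2% to 86.4% in blastocyst runs. L1 made up 24.8%, 11.3% and 14.9% of transposon counts in oocyte runs 1.1, 1.2 and 2, and 32.9% and 17.9% in 2-cell runs 1 and 2. It made up 33.4%, 26.1% and 15.6% in 8-cell runs 1.1, 1.2 and 2, and 46.6%, 41.9% and 37.4% in blastocyst runs 1.1, 1.2 and 2. On this measure the blastocyst stood above every other run of the series, whereas oocyte, 2-cell and 8-cell runs overlapped throughout. The gap between the lowest blastocyst run and the highest earlier run, 8-cell run 1.1, was 4.01 percentage points.

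Among transposon counts the ratio of blastocyst to oocyte was 2.47 (41.9% and 17.0%), which was called, and leaving out any single run kept it between 2.11 and 3.20. In that comparison 26.5% of the 34 transposon families were called higher, among them rows with few counts over both stages, such as LTR (6) and TcMar (77). The ratio of blastocyst to 8-cell was 1.68 (41.9% and 25.03%) and that of blastocyst to 2-cell was 1.65 (41.9% and 25.4%), both with separate runs and under 2-fold. The ratio of 8-cell to 2-cell was 0.986, with overlapping runs. Separate runs with the blastocyst higher were found for 14.7% of transposon families against the 8-cell embryo and 11.8% against the 2-cell embryo. Besides L1, the rows behind the first share held 24 to 86 counts over both stages, and those behind the second held 5 to 109. Without 8-cell run 1.1 the ratio to the 8-cell stage was 2.01, and without 2-cell run 1 the ratio to the 2-cell stage was 2.34, both called. The ratio of 2-cell to oocyte was 1.49 (25.4% and 17.0%) with overlapping runs, so the call on all counts was not made among transposons, where 20.6% of families were called higher.

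**Figure D2:**
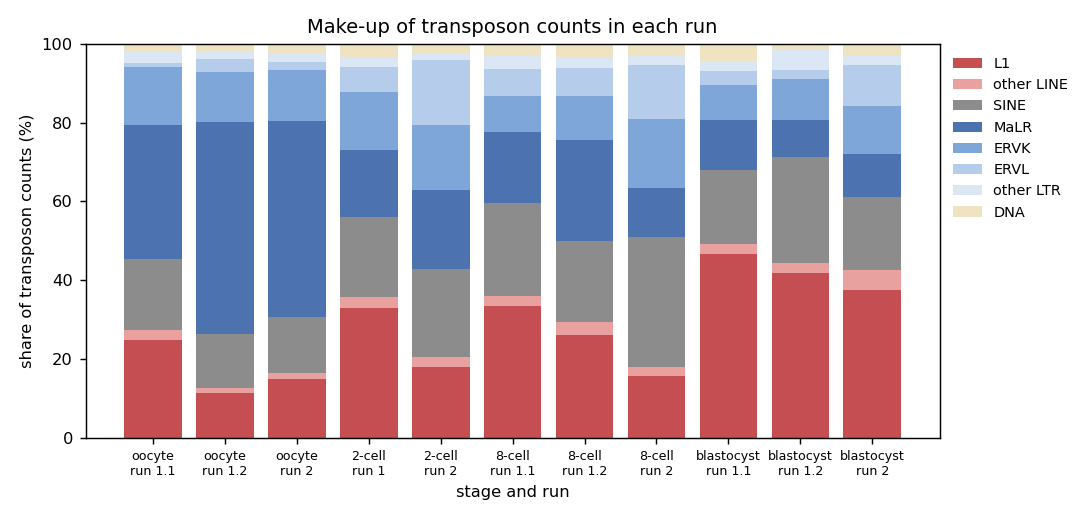
Stacked bars of the make-up of transposon counts in each run, in percent, with runs in order of stage and the L1 row at the bottom. L1 widens to between 37.4% and 46.6% in the blastocyst runs, while MaLR narrows to between 9.57% and 12.7% there, against 34.1% to 53.9% in the oocyte runs.

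The rest of the transposon counts shows what stood beside L1. MaLR averaged 45.9% of transposon counts in the oocyte, 18.6% in the 2-cell embryo, 18.7% in the 8-cell embryo and 11.1% in the blastocyst. SINE rows together averaged 15.3%, 21.4%, 25.8% and 21.5% in the same order. ERVL, the LTR family that holds MERVL, averaged 2.17%, 11.5%, 9.19% and 5.42%. The LINE rows other than L1 averaged 1.76%, 2.65%, 2.74% and 3.38%. L1 was therefore nearly all of the LINE counts at every stage, with 90.7%, 89.9%, 89.5% and 92.4% of them and a range of 86.6% to 94.6% over runs.

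L1 was also set against the sum of the other retrotransposon rows of the same run, which includes MaLR. L1 had 0.338, 0.131 and 0.180 counts per count of the other 18 retrotransposon rows in oocyte runs 1.1, 1.2 and 2. It had 0.517 and 0.225 in 2-cell runs 1 and 2, and 0.525, 0.371 and 0.191 in 8-cell runs 1.1, 1.2 and 2. In blastocyst runs 1.1, 1.2 and 2 it had 0.948, 0.742 and 0.628. Every blastocyst run lay above every earlier run. The geometric means were 0.761 in the blastocyst and 0.199 in the oocyte, a ratio of 3.82 that stayed between 3.09 and 4.97 without any single run. Against the 8-cell embryo (0.334) the blastocyst ratio was 2.28, and against the 2-cell embryo (0.341) it was 2.23, both called. A count ratio spreads values wider than a share does: as a share of retrotransposon counts the same differences were 1.67-fold (43.3% and 25.9%) and 1.65-fold (43.3% and 26.2%), with separate runs and not called. Without 8-cell run 2 the ratio to the 8-cell embryo was 1.72, and without 2-cell run 2 the ratio to the 2-cell embryo was 1.47, neither of them called. Without 2-cell run 1 the ratio to the 2-cell embryo was 3.39. The ratio of 2-cell to oocyte was 1.71 with overlapping runs, and it was called without oocyte run 1.1 (2.23) or without 2-cell run 2 (2.59). That of 8-cell to oocyte was 1.67 with overlapping runs, and it was called without 8-cell run 2 (2.21). It was also called without oocyte run 1.1, where 8-cell run 2 (0.191) lay just above oocyte run 2 (0.180).

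Among the 12 retrotransposon rows with at least 1000 counts, the ratio of L1 to MaLR changed most over the whole course. L1 had 0.729, 0.210 and 0.299 counts per MaLR count in oocyte runs 1.1, 1.2 and 2, and 1.93 and 0.891 in 2-cell runs 1 and 2. It had 1.86, 1.02 and 1.24 in 8-cell runs 1.1, 1.2 and 2, and 3.67, 4.38 and 3.42 in blastocyst runs 1.1, 1.2 and 2. Oocyte runs were lowest, blastocyst runs highest and the cleavage stages lay between, with no overlap between these 3 levels. The L1 to MaLR ratio was called higher in the 2-cell embryo than in the oocyte (3.67-fold), in the blastocyst than in the 8-cell embryo (2.85-fold) and in the blastocyst than in the oocyte (10.6-fold). The last was 8.14-fold to 15.2-fold without any single run. In the 2-cell step the ratio of L1 to 20.6% of the 34 rows compared was called higher, in the blastocyst step to 17.6% and over the whole course to 38.2%.

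L1 had 1.68, 0.883 and 1.15 counts per ERVK count in oocyte runs 1.1, 1.2 and 2, and 2.24 and 1.09 in 2-cell runs 1 and 2. It had 3.62, 2.33 and 0.898 in 8-cell runs 1.1, 1.2 and 2, and 5.29, 4.03 and 3.03 in blastocyst runs 1.1, 1.2 and 2. The ratio to ERVK was called higher in the blastocyst than in the oocyte (3.36-fold) and than in the 2-cell embryo (2.57-fold, and 1.79-fold and not called without 2-cell run 2). ERVL took another course. Its geometric mean ratio was 8.21 in the oocyte, 2.34 in the 2-cell embryo, 2.74 in the 8-cell embryo and 9.52 in the blastocyst, and runs overlapped in every stage pair. These ratios rest on single runs. The change was 0.285-fold for 2-cell over oocyte, with 0.132-fold to 0.616-fold without 1 run, and it was called lower without oocyte run 1.2 (0.186-fold) or 2-cell run 1 (0.132-fold). For 8-cell over oocyte it was 0.334-fold, and called lower without oocyte run 1.2 (0.218-fold). For 8-cell over 2-cell it was 1.17-fold, and 2.53-fold and called without 2-cell run 1, against 0.542-fold without 2-cell run 2. For blastocyst over 2-cell it was 4.07-fold, with 1.88-fold to 8.80-fold without 1 run, and called higher without 2-cell run 1 (8.80-fold) or blastocyst run 2 (6.64-fold). For blastocyst over 8-cell it was 3.47-fold, and called without blastocyst run 2 (5.66-fold). In the oocyte the L1 to ERVL ratio was 23.4 in run 1.1 and 3.50 in run 1.2. The ratio to ERV1, a further LTR family, ran from 5.87 in 8-cell run 2 to 18.1 in blastocyst run 1.1 and was called in no stage pair with all runs. The 2-cell and blastocyst runs lay above every oocyte run, at 1.79-fold and 1.91-fold. It was called higher for 2-cell over oocyte without 2-cell run 2 (2.08-fold). Without blastocyst run 1.2 it was called higher for blastocyst over 8-cell (2.13-fold) and for blastocyst over oocyte (2.43-fold).

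**Figure D3:**
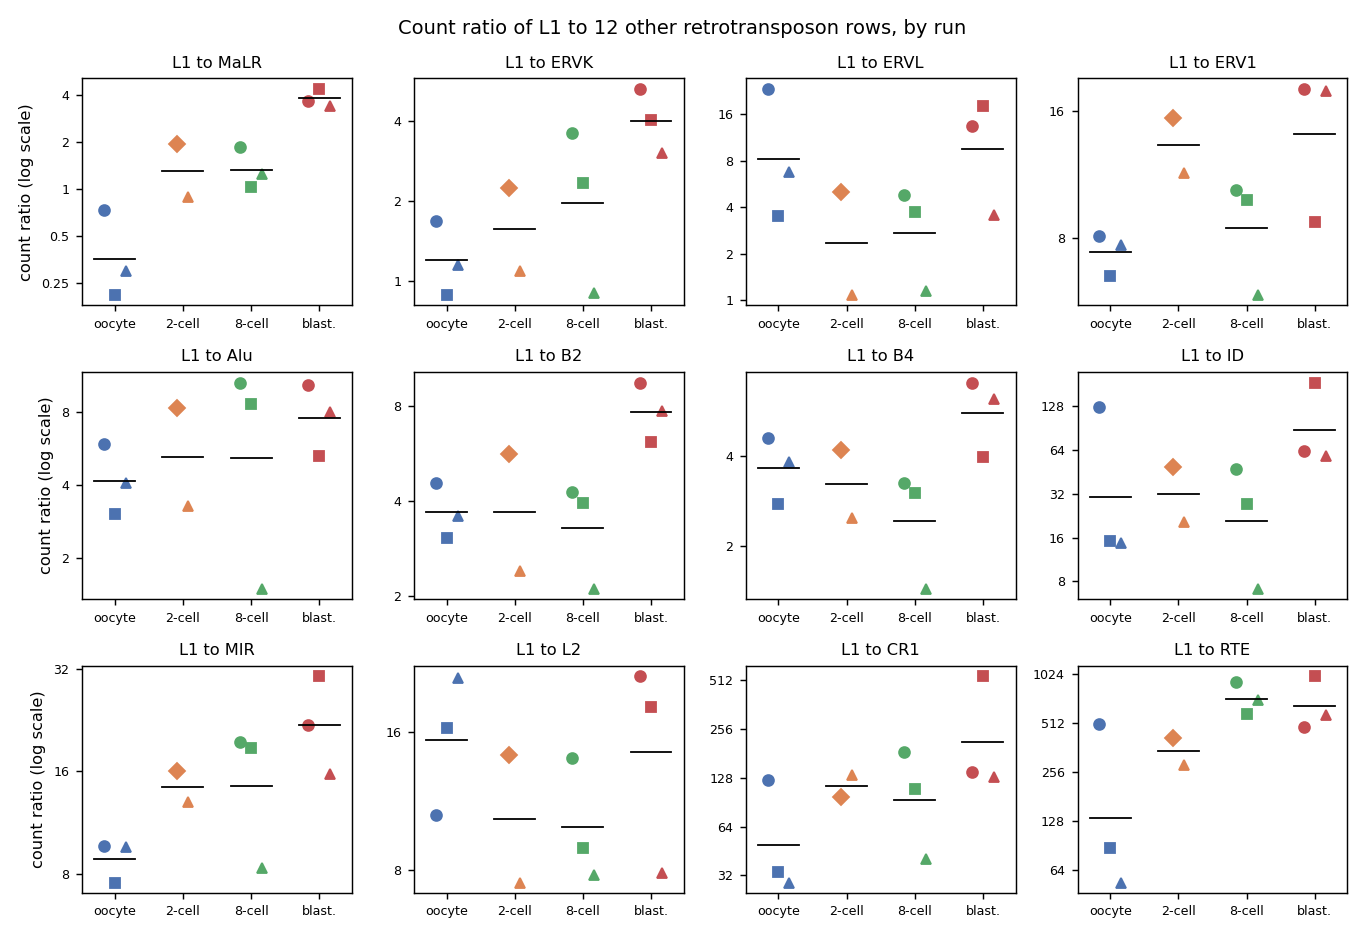
Count ratio of L1 to each of 12 other retrotransposon rows in each run, on log scales that differ between panels, by stage, with the same run symbols and the geometric mean of the runs as a line. The ratio to MaLR lies between 3.42 and 4.38 in the blastocyst, against 0.210 to 0.729 in the oocyte, whereas the ratio to L2 overlaps between all stages (7.50 to 21.1 over all runs).

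L1 per count of the SINE rows that L1 enzymes copy had similar means at the first 3 stages and a higher mean in the blastocyst, where 1 of the 3 stage pairs was called. Per count of Alu (the row that holds B1), B2, B4 and ID together, L1 had a geometric mean of 1.205 in the oocyte, 1.24 in the 2-cell embryo, 1.01 in the 8-cell embryo and 2.19 in the blastocyst. The ratio was 2.78, 1.64 and 2.31 in blastocyst runs 1.1, 1.2 and 2, against 1.52, 1.35 and 0.504 in 8-cell runs 1.1, 1.2 and 2. Blastocyst runs lay above 8-cell runs, a 2.17-fold difference that was called. Without 8-cell run 2 it was 1.53-fold and without blastocyst run 1.1 it was 1.92-fold, neither called, in an alternative added after the data were seen. The blastocyst mean was 1.77-fold that of the 2-cell embryo, with overlapping runs, and 1.82-fold that of the oocyte, with barely separate runs, neither called. In the same added alternative the first was called without 2-cell run 1 (2.57-fold) and the second without oocyte run 1.1 (2.11-fold). Without blastocyst run 1.2 both were called. The ratio of 2-cell to oocyte was 1.03.

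For single SINE rows in the blastocyst to 8-cell comparison, the L1 ratio was called higher for B2 (2.33-fold), B4 (2.32-fold) and ID (4.22-fold), and it was 1.47-fold with overlapping runs for Alu, which turned to 0.790-fold without 8-cell run 2. Without 8-cell run 2 the B2 and B4 differences were 1.87-fold and 1.79-fold and were not called, and the ID difference was 2.46-fold. The ID difference was also 6.36-fold without 8-cell run 1.1. L1 had 9.48, 6.16 and 7.69 counts per B2 count in blastocyst runs 1.1, 1.2 and 2, against 4.27, 3.93 and 2.11 in 8-cell runs 1.1, 1.2 and 2. L1 to Alu reached 10.6 and 8.64 in 8-cell runs 1.1 and 1.2 and only 1.49 in run 2, which overlapped with the blastocyst range of 5.24 to 10.3. L1 to MIR, an old SINE family that depends on L2 rather than L1, was called higher in the blastocyst than in the oocyte (2.47-fold).

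The other LINE rows are remnants of old families that no longer move in the mouse. L1 had a geometric mean of 15.3 counts per L2 count in the oocyte, 10.3 in the 2-cell embryo, 9.93 in the 8-cell embryo and 14.5 in the blastocyst, with overlapping runs in every pair. Its ratio to CR1 was 138, 543 and 130 in blastocyst runs 1.1, 1.2 and 2, against 125, 33.4 and 28.9 in oocyte runs 1.1, 1.2 and 2. That difference was 4.32-fold and was called, although blastocyst run 2 lay only just above oocyte run 1.1. It was 2.71-fold without blastocyst run 1.2 and 6.87-fold without oocyte run 1.1. Against RTE the ratio was called higher in the 8-cell embryo than in the oocyte (5.42-fold) and than in the 2-cell embryo (2.10-fold). The first was 10.54-fold without oocyte run 1.1 and 3.44-fold without oocyte run 2. The second was 1.73-fold without 2-cell run 2 and 1.86-fold without 8-cell run 1.1, neither called.

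Of the 12 rows, L1 gained on 5 in the blastocyst against the oocyte by the rule: MaLR, ERVK, B2, MIR and CR1. Over all 34 rows compared, the L1 ratio was called higher for 38.2% in this pair. Over this comparison the median ratio change of the 12 was 2.27-fold. It gained on MaLR, B2, B4 and ID in the blastocyst against the 8-cell embryo, on MaLR, ERVK, B2 and ID against the 2-cell embryo, and on MaLR alone in the 2-cell embryo against the oocyte. Without 2-cell run 2 the 4 gains on the 2-cell embryo were 1.97-fold, 1.79-fold, 1.36-fold and 1.80-fold in the order named, and none was called. Without 2-cell run 1 those on B2 and ID were 3.19-fold and 4.29-fold, against 2.08-fold and 2.78-fold with both runs. The gain on B2 against the oocyte was 2.08-fold, and it was lost without oocyte run 1.2 (1.89-fold) or blastocyst run 1.1 (1.87-fold). That on B2 against the 2-cell embryo was also lost without blastocyst run 1.1 (1.87-fold), and that on ID without blastocyst run 1.2 (1.91-fold). In the 8-cell embryo L1 gained on MaLR and RTE against the oocyte and on RTE against the 2-cell embryo. With all runs, L1 lost ground by the rule to none of the 12 in any of the 6 stage pairs. Losses appeared without single runs: to ERVL as given above, to L2 for 2-cell over oocyte without 2-cell run 1 (0.490-fold) and to ID for 8-cell over 2-cell without 2-cell run 2 (0.426-fold). With counts pooled over runs L1 also lost to ERV1 for 8-cell over 2-cell (0.470-fold). Further gains appeared without single runs, among them on ID for blastocyst over oocyte without oocyte run 1.1 (5.93-fold). Others were on ERVK (2.43-fold) and MIR (2.16-fold) for 8-cell over oocyte without 8-cell run 2. Of 501 alternatives for single rows and the SINE rows together, 42 added a call, gain or loss, and 16 removed one. Over the 34 rows compared, the L1 ratio was called lower for 5.88% in the blastocyst against the 8-cell embryo, for 8.82% against the 2-cell embryo and for 0% in the other 4 stage pairs. It was called higher for 14.7% in the blastocyst against the 2-cell embryo, for 17.6% in the 8-cell embryo against the oocyte and for 5.88% in the 8-cell embryo against the 2-cell embryo. The share was 17.6% in the blastocyst against the 8-cell embryo and 20.6% in the 2-cell embryo against the oocyte.

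Likeness was measured as the standard deviation (SD) over the 11 runs of the log2 count ratio of L1 to each of 34 rows with at least 100 counts and at least 1 in every run. A small SD means that a row kept a steady ratio to L1. The 5 most alike were ERV1 (SD 0.56), L2 (0.58), B4 (0.64), MIR (0.64) and B2 (0.67), all of them retrotransposons. This depends on the measure: by interquartile range the DNA transposons MER2_type (0.66) and hAT (0.82) replaced L2 (1.03) and MIR (0.99) among the 5. The 5 least alike were satellites (2.87), transfer RNA (2.32), low-complexity sequence (2.25), rRNA (2.18) and small cytoplasmic RNA (2.17), all outside the transposons. MaLR (1.43) and ERVL (1.44) stood 20th and 21st of the 34 and ERVK (0.91) 11th. The remaining retrotransposon rows compared were Alu (10th), CR1 (14th), RTE (17th), ID (18th), Gypsy (24th) and the row named SINE (26th). The remaining rows not classed as transposons were Other (7th), RNA (12th), small nuclear RNA (19th), simple repeats (25th) and Unknown (29th). The 11 runs share stages and sequencing runs and are not independent.

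**Figure D4:**
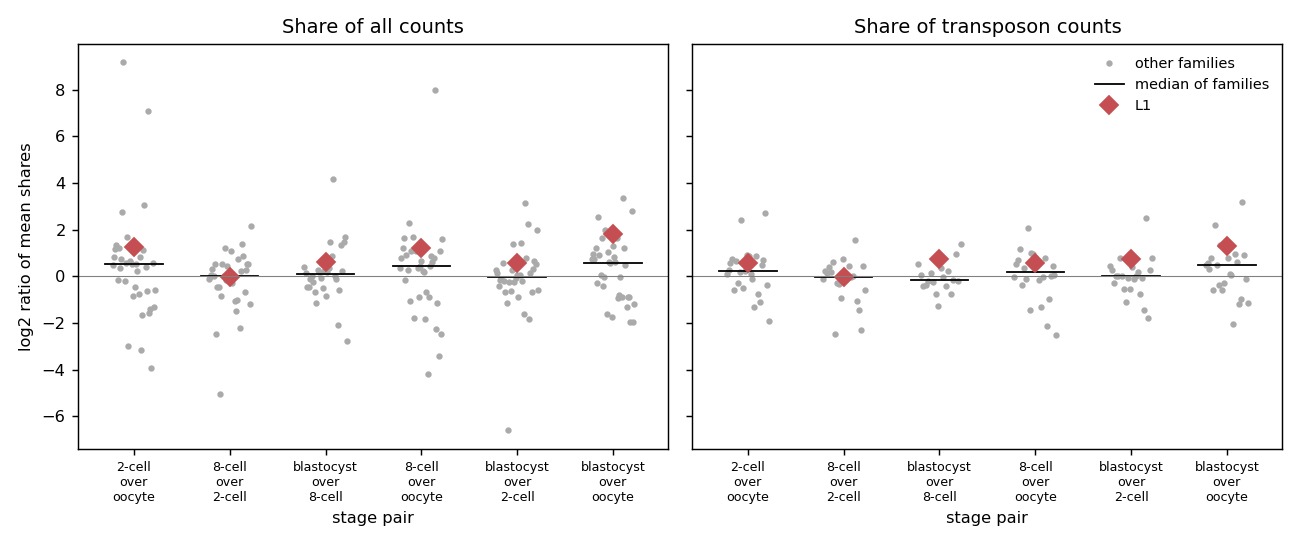
Log2 ratio of mean shares for 6 stage pairs, later over earlier stage, for the families holding 100 or more counts in the pair (grey points), their median (line) and L1 (diamond), by share of all counts (left) and of transposon counts (right). L1 lies above the median family in 5 pairs on both sides and at or just under it for 8-cell over 2-cell.

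Set against the families of the table, L1 stood 5th of 36 by ratio of blastocyst to oocyte on all counts, with a log2 ratio of 1.81 beside a median of 0.58 for the families holding 100 or more counts in that pair. By ratio of 2-cell to oocyte it stood 9th of 38, with 1.25 beside a median of 0.52. The median family itself shifts with the scaling. For blastocyst over oocyte it was 0.58 by share of all counts, -0.16 with DESeq2 size factors and -0.45 with TMM factors. The log2 ratio of L1 itself was 1.81, 1.06 and 0.79 under these scalings. Less that median it was 1.22, 1.22 and 1.23, but a scaling shared by the runs of a stage cancels in this difference. For 2-cell over oocyte L1 less the median was 0.73, 0.59 and 0.59, and for 8-cell over 2-cell it was -0.04, -0.07 and -0.04. For blastocyst over 8-cell it was 0.52, 1.04 and 0.82.

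The labels name no sequencing runs, so runs whose read names shared an instrument or run part were taken as sequenced together. By this inference some runs of different stages shared a sequencing run. Blastocyst run 1.2 shared a sequencing run with oocyte runs 1.1 and 2, where L1 took 29.4% of counts in the blastocyst and a mean of 10.1% in the oocyte, a ratio of 2.90. Its ratio was 2.11 among transposon counts and 2.86 against other retrotransposon rows. 8-cell run 1.2 shared a sequencing run with oocyte run 1.2, where L1 took 23.8% in the 8-cell embryo and 8.05% in the oocyte. That ratio was 2.96, and it was 2.31 among transposon counts and 2.84 against other retrotransposon rows. 8-cell run 2 shared one with 2-cell run 2, where L1 took 9.47% in the 8-cell embryo and 14.7% in the 2-cell embryo, with ratios of 0.643, 0.872 and 0.851 on the 3 measures. No sequencing run held the 2-cell embryo with the oocyte, or the blastocyst with the 2-cell or 8-cell embryo, so in those pairs the stage cannot be told apart from the sequencing run.

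The L1 share moved with the score of the read placements, whose scale is not stated. In a division made after the values were seen, the 6 runs with a median score of 15 to 32 had 23.8% to 37.3% L1. The 5 runs with a median score of 35 to 54 had 8.05% to 14.7%. The lower scores were those of all 3 blastocyst runs, 8-cell runs 1.1 and 1.2 and 2-cell run 1, and the higher ones were those of all oocyte runs, 2-cell run 2 and 8-cell run 2. Within the 8-cell embryo, median scores of 16, 28 and 54 went with L1 shares of 31.7%, 23.8% and 9.47%. On all counts, blastocyst run 1.2 had 29.4% L1 at a median score of 32, below 2-cell run 1 with 30.1% at 24 and 8-cell run 1.1 with 31.7% at 16. Among transposon counts, it had 41.9% L1 at a median score of 32, above 2-cell run 1 with 32.9% at 24, 8-cell run 1.2 with 26.1% at 28 and 8-cell run 1.1 with 33.4% at 16. Oocyte run 2 had 14.9% at 35. The files name no repeat beside the score, so the part of the score in these differences was not tested.

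**Figure D5:**
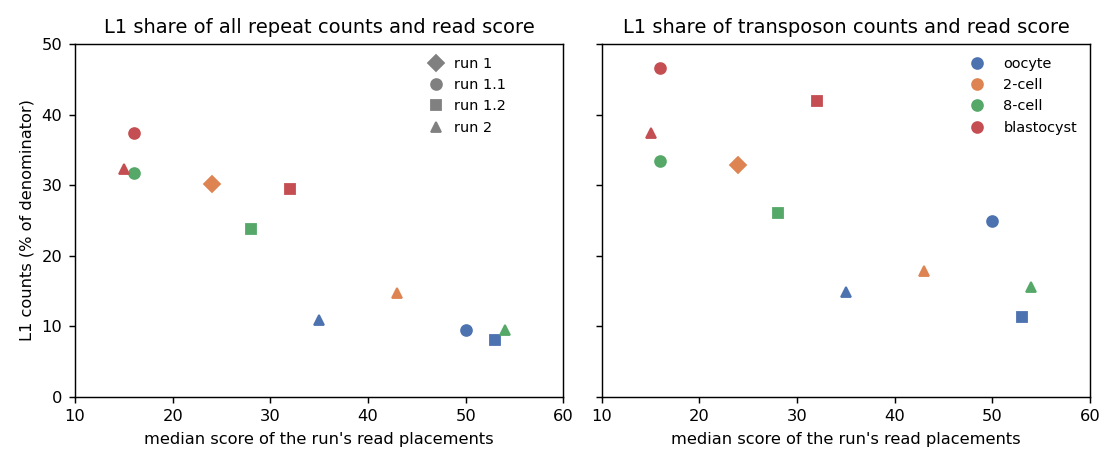
L1 share of all counts (left) and of transposon counts (right) in percent against the median score of the run's read placements, 1 point per run, with stages as colours and run numbers as symbols. On both sides the 6 runs at scores of 15 to 32 all lie above the 5 runs at 35 to 54, and blastocyst run 1.2 (score 32) lies below 2-cell run 1 and 8-cell run 1.1 on the left and above them on the right.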

How the data were processed

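The authors deposited 1 table of raw read counts for 47 repeat families in 11 nanoCAGE runs. They also deposited read placements of 25 bases with a score from 1 to 99, whose scale is not stated. The submitters' processing notes name the genome build mm9 and the tool CASAVA. Not given in the sources used here are the aligner settings, the annotation of repeats and how a read with more than 1 placement was counted. Counts per read placement ran from 0.797 to 2.07 over runs, so a count need not be 1 read.

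L1 counts were divided by the run total, by the 34 transposon rows or by the other retrotransposon rows. Stage values are means of runs, geometric for ratios. With 1 sample a stage no count model was fitted. Row classes were assigned from repeat nomenclature, with Genie? left unclassified. Rows named are L1, retrotransposon rows with at least 1000 counts, and the 5 most and 5 least like L1. Members, lists and alternatives were chosen with earlier results of these data known. The calling rule was checked on simulated data for the larger rows, with counting error only. Calls that arise from spread between runs or in rows with few counts were not checked. Python 3.11.15, edgeR 4.0.16 (TMM) and DESeq2 1.42.0 (size factors) were used.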

Additional observations from a re-analysis of the deposited data

How the results depend on the processing

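The higher L1 share of the blastocyst than of the oocyte passed under every alternative but TMM factors (ratio 1.72). The 2-cell to oocyte ratio on all counts (2.38, under a limit of 3) was lost with transposon rows (1.49), retrotransposon rows (1.51), all rows but rRNA (1.88), all rows but RNA genes, satellites and simple repeats (1.49) or read-file lines (1.77) as denominator, with DESeq2 size factors (1.35) and with TMM factors (1.196). Leaving out 1 run gave 1.56 to 3.19. The 8-cell to 2-cell ratio, never called, changed direction with size factors (1.11) and with the median of runs on all counts (1.06), on transposon counts (1.03) and against other retrotransposon rows (1.09). Leaving out 1 run gave 0.720 to 1.47, 0.761 to 1.40 and 0.646 to 1.49 on these measures. On all counts 8-cell over oocyte was past 2-fold in the shared sequencing run, where 1 run against 1 cannot overlap (2.96), with 1.76 to 2.94 without 1 run, and blastocyst over 2-cell had 1.096 to 2.24. On transposon counts blastocyst over 8-cell was called with pooled counts (2.32), with 1.41 to 2.01 without 1 run, and blastocyst over 2-cell had 1.28 to 2.34. Against other retrotransposon rows, blastocyst over 8-cell was lost with the median of runs (1.998; 1.72 to 2.86 without 1 run) and blastocyst over 2-cell with pooled counts (1.99; 1.47 to 3.39). There 2-cell over oocyte had 1.13 to 2.59 and 8-cell over oocyte 1.34 to 2.21. The causes were not tested.

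The number of families called over all 47 was 19 for 2-cell over oocyte, 11 for 8-cell over oocyte and 6 for blastocyst over 2-cell, against 8, 7 and 3 among transposon rows. It was 5, 6 and 16 for 8-cell over 2-cell, blastocyst over 8-cell and blastocyst over oocyte, against 3, 3 and 9 with at least 100 counts, and 3 and 10 among transposon rows for the first and the last. With the interquartile range in place of the SD, L2 and MIR ranked 10th and 9th in likeness to L1. No paired analysis was possible because no test was made with 1 sample a stage, and whether run numbers link stages is not stated. Every run held at least 10852 L1 counts, so counting error was small, but depth differed between stages.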
